A study of Larimichthys crocea with 3 samples.

Results

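The 8 sperm tail genes described here were measured in testis cells of Larimichthys crocea, the large yellow croaker, a marine fish. They were the tektins tekt1, tekt2 and tekt4, the scaffold and anchoring genes akap14 and ropn1l, the central pair gene spag6, and the testis genes spata4 and spata18. They were taken by name from the feature list of the deposited count matrices. All 8 names were present, out of 27368 features, and the rule that takes them goes by name alone. Every one of them held at least 50 UMIs in each pair of libraries, so none was lost to a filter on low counts. A UMI is a molecular tag that counts 1 captured RNA molecule.

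The 3 groups were adult differentiating testis, adult regressed testis and juvenile testis, with 1 library each and no treatment or genetic change named in the labels. Testes were freed of blood and tunica and digested to single cells, and 3′ droplet libraries were made. The number of fish pooled, their ages and the season are not given in the sources used here. With 1 library per group there was no test between groups. Every interval below is a 95% interval that covers counting error only, and a difference between libraries cannot be told apart from a difference between fish, dissections or library preparations.

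After filters on cells, 12839, 15276 and 4560 cells remained in the adult differentiating, adult regressed and juvenile libraries, with medians of 3559, 11709.5 and 3095 UMIs per cell. Levels are given as CPM, a gene's UMIs scaled to the same total in every library. Summed over each library, the spermatid marker list stood at 233, 18.8 and 27.0 CPM in the adult differentiating, adult regressed and juvenile libraries, the early spermatocyte list at 8248, 2833 and 950, and the Sertoli list at 5.03, 31.9 and 407. The Sertoli hormone gene amh had 0 UMIs in the adult differentiating library. Markers of multiciliated epithelium, which also uses tektins, stood at 9.69 CPM in the adult differentiating, 67.4 CPM in the adult regressed and 653 CPM in the juvenile library. That list holds not only cilium genes but also epithelial genes such as epcam and krt8, and no cluster was named for it. Among the leading genes of juvenile Sertoli-like cells was krt8, so the sum does not measure ciliated cells alone. The list scored best of all lists in unnamed adult regressed clusters 11 (682 cells, epcam raised) and 20 (17 cells, ccno and krt8 raised). Its cilium genes were not summed apart, and a part of ciliated cells in the levels of the 8 genes was not tested. Oocyte markers stood at 71.6 CPM in the adult differentiating, 127 CPM in the adult regressed and 4444 CPM in the juvenile library. Their part in the results was not tested. Libraries shared few barcodes, between 18 and 68 for each pair.

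Tektins are coiled-coil proteins that run as filaments along the inside of the doublet microtubules of cilia and sperm tails. Besides that scaffold, central pair proteins sit on the central pair of microtubules. A-kinase anchoring proteins hold protein kinase A, the kinase that carries the cyclic AMP signal for sperm motility. In vertebrate testis many such genes are transcribed in meiotic and haploid germ cells, before and while the tail is assembled.

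In adult differentiating testis 7 of the 8 genes were higher past 2-fold than in adult regressed testis, by 5.39 to 156 times. Past the same line, 7 of 8 were higher than in juvenile testis, by 5.33 to 35.0 times. The exception in both was tekt2, which was lower than in adult regressed testis and 1.60 times its juvenile level. Past 2-fold in CPM, 18.9% of 19781 genes were higher in adult differentiating than in adult regressed testis and 23.6% were lower, and 41.0% of 17644 genes were higher in adult differentiating than in juvenile testis and 25.5% were lower. The median gene stood at 0.90 and 1.42 times in these 2 comparisons (log2 ratios of -0.16 and 0.51). Fewer cells that carry these genes and less of their RNA per cell cannot be told apart in such sums. Both comparisons share the adult differentiating library.

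**Figure D1:**
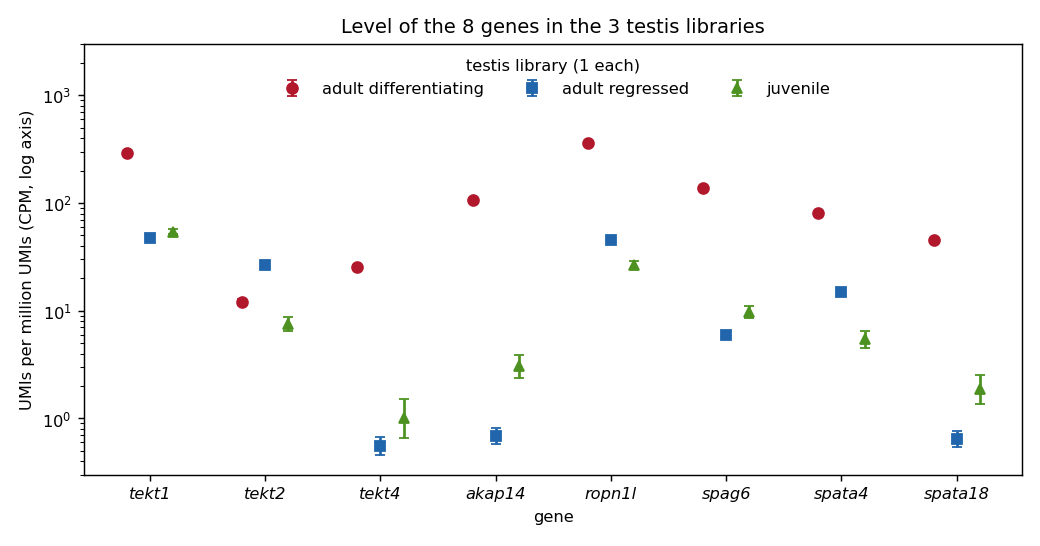
Level of each gene (CPM, log axis) in the adult differentiating, adult regressed and juvenile testis libraries, 1 library each; bars are 95% Poisson intervals and many are smaller than the symbols. The adult differentiating library is highest for 7 genes, and the adult regressed library is highest for tekt2, at 26.5 CPM.

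Among the tektins, tekt1 had 290 CPM in adult differentiating testis (interval 286.5 to 294.1), 47.0 CPM in adult regressed testis (46.0 to 47.9) and 54.5 CPM in juvenile testis (51.5 to 57.5). That is 6.18 times the adult regressed level (6.03 to 6.33) and 5.33 times the juvenile level (5.04 to 5.64). The adult regressed and juvenile values lay close together, at a ratio of 0.863.

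tekt4 had 25.6 CPM in adult differentiating testis, 0.556 CPM in adult regressed testis (116 UMIs) and 1.02 CPM in juvenile testis (24 UMIs). The ratio was 46.0 over adult regressed (38.1 to 55.9) and 25.1 over juvenile testis (16.8 to 39.3). Outside the adult differentiating library this tektin was near 0, while tekt1 was not.

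tekt2 had 12.02 CPM in adult differentiating testis (11.3 to 12.8), 26.5 CPM in adult regressed testis (25.8 to 27.2) and 7.52 CPM in juvenile testis (6.45 to 8.71). It was lower in adult differentiating than in adult regressed testis, at 0.454 times (0.423 to 0.487), and 1.60 times the juvenile level (1.36 to 1.89). The call against adult regressed testis sits at its threshold, since the ratio was 0.507 with doublets kept or with every barcode and 0.501 under median-of-ratios scaling, and against juvenile testis it was 0.915 when cells were averaged one by one.

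Of the anchoring genes, akap14, whose mammalian product binds the regulatory subunit of protein kinase A in axonemes, showed the widest gap. It had 107 CPM in adult differentiating testis (105 to 109), 0.686 CPM in adult regressed testis (143 UMIs) and 3.06 CPM in juvenile testis (72 UMIs). The ratio was 156 over adult regressed (132 to 185) and 35.0 over juvenile testis (27.8 to 44.8). In the L_crocea_2.0 gene table akap14 overlaps pnpla8, and whether counting used strand is not given in the sources used here. pnpla8 itself was at 72.3, 37.4 and 6.29 CPM in the adult differentiating, adult regressed and juvenile libraries.

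ropn1l, whose product resembles the kinase's regulatory subunit and binds anchoring proteins in mammalian sperm, had 358 CPM in adult differentiating testis, 45.3 CPM in adult regressed testis and 26.6 CPM in juvenile testis. The ratio was 7.91 over adult regressed (7.72 to 8.09) and 13.5 over juvenile testis (12.4 to 14.6). ropn1l and tekt1 together supplied most of the UMIs of the 8 genes: 33.9% and 27.5% in adult differentiating testis, 32.0% and 33.2% in adult regressed testis, and 24.2% and 49.6% in juvenile testis.

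spag6, an armadillo-repeat protein of the central pair known from algae (as PF16) and mammals, had 137 CPM in adult differentiating testis, 5.98 CPM in adult regressed testis and 9.77 CPM in juvenile testis. Its ratio was 22.9 over adult regressed (21.6 to 24.3) and 14 over juvenile testis (12.3 to 16.1). spata4, a testis gene of little known function, had 81.0 CPM in adult differentiating testis, 15.04 CPM in adult regressed testis and 5.44 CPM in juvenile testis. Its ratio was 5.39 over adult regressed (5.16 to 5.63) and 14.9 over juvenile testis (12.5 to 17.9). spata18, known in mammals for its part in mitochondrial quality control, had 45.7 CPM in adult differentiating testis, 0.648 CPM in adult regressed testis (135 UMIs) and 1.87 CPM in juvenile testis (44 UMIs). Its ratio was 70.6 over adult regressed (59.5 to 84.5) and 24.5 over juvenile testis (18.2 to 33.7). All 3 genes were thus highest in adult differentiating testis, and only spata4 was higher in adult regressed than in juvenile testis.

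Between the other 2 libraries the genes differed in direction. Over juvenile testis, adult regressed testis was higher past 2-fold for 2 genes, tekt2 at 3.52 times and spata4 at 2.77 times, against 36.1% of 19761 genes. It was lower past 2-fold for 2 genes, akap14 at 0.224 times and spata18 at 0.347 times, against 22.2% of genes. The summed level was 142 CPM in adult regressed testis and 110 CPM in juvenile testis, a ratio of 1.29, beside 1.37 for the median gene.

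The balance among the 8 genes differed between libraries. For every 100 UMIs of tekt1 there were 36.9 of akap14 in adult differentiating testis, 1.46 in adult regressed testis and 5.62 in juvenile testis. For tekt2 the order was turned round, with 4.14 in adult differentiating testis, 56.3 in adult regressed testis and 13.8 in juvenile testis.

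Onset was read in the adult differentiating library, where cells were grouped into 18 clusters without the 8 genes or any gene of the pathway lists. Clusters were named from marker genes: 5 were early spermatocyte-like (6343 cells), 3 late spermatocyte-like (2111 cells) and 3 spermatid-like (1679 cells). Another 7 stayed unnamed, among them cluster 8 (576 cells), led by cell division genes such as plk1, ccnb1 and cenpa. Of the early spermatocyte-like clusters, 4 had nearly the same stage score, so that their order among themselves is not resolved. A gene's onset is the first cluster in which it reached 10% of its level in its highest cluster. No cluster was named for spermatogonia, and unnamed clusters, such as 5, 8 and 15, have no place in the order. An onset could therefore not fall before the early spermatocyte-like clusters.

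The 8 genes summed stood at 488 CPM in early spermatocyte-like cells, 2063 CPM in late spermatocyte-like cells and 4966 CPM in spermatid-like cells. The spermatid-like cells made up 13.1% of the library's cells and held 40.1% of the UMIs of the 8 genes. The genes fell into an earlier and a later set along this axis, with tekt2 outside both.

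ropn1l and spata4 shared the same onset cluster under every setting tried. The 10% line of ropn1l was set by unnamed shallow cluster 16, at 1896 CPM, and that of tekt4 by unnamed shallow cluster 17, at 160 CPM. ropn1l reached its onset level in early spermatocyte-like cluster 10 at 378 CPM. It stood at 299, 798 and 912 CPM in early spermatocyte-like, late spermatocyte-like and spermatid-like cells. It was lower again in clusters 7 and 3, at 44.0 and 99.1 CPM, whose order relative to cluster 10 is not resolved. spata4 also passed 10% in cluster 10, at 39.6 CPM, and had 47.7, 225 and 223 CPM in the same 3 classes, a level in spermatid-like cells no higher than in late spermatocyte-like cells. tekt4 passed 10% in early spermatocyte-like cluster 1, at 19.4 CPM, and had 7.15, 62.2 and 128 CPM.

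akap14 and spag6 first passed 10% in late spermatocyte-like cluster 4, at 121 and 176 CPM. akap14 stood at 21.0, 203 and 683 CPM in the 3 classes, and spag6 at 20.3, 294 and 853 CPM. tekt1 passed in late spermatocyte-like cluster 14, at 423 CPM, with 80.4, 421 and 1818 CPM in the 3 classes. spata18 was the last, passing in late spermatocyte-like cluster 11 at 126 CPM, with 8.16, 59.4 and 350 CPM. With the line at 25% of the highest cluster, ropn1l and spata4 started in early spermatocyte-like cluster 1, tekt4, akap14, spag6 and tekt1 in late spermatocyte-like clusters, and spata18 in spermatid-like cluster 6. With doublets kept, tekt4 likewise started in a late spermatocyte-like cluster.

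**Figure D2:**
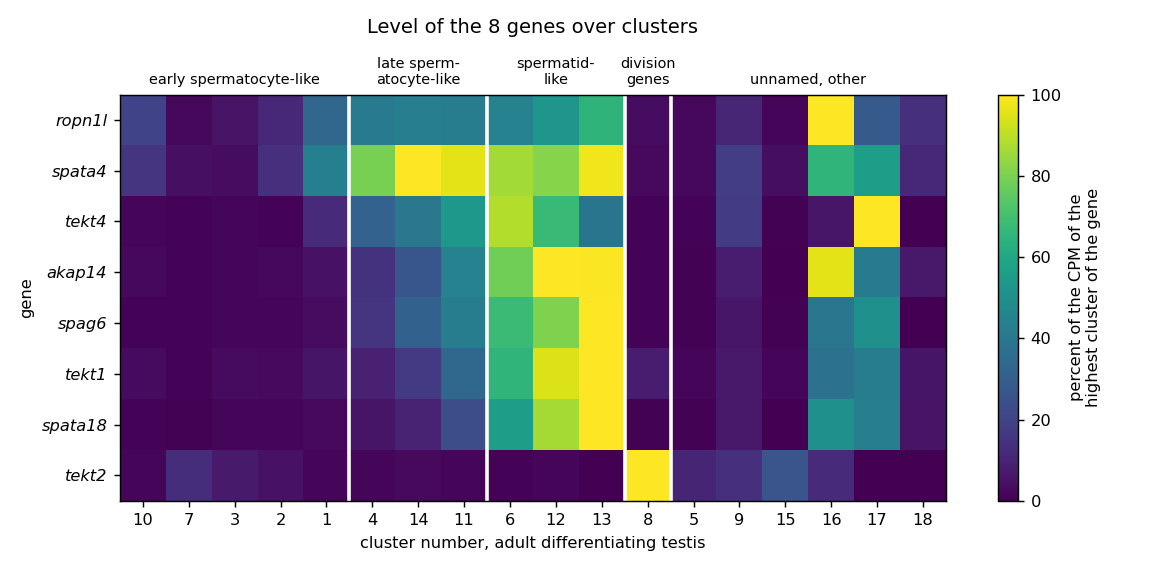
Level of each gene in the 18 clusters of the adult differentiating library, as a percent of its CPM in its own highest cluster; columns are clusters by class and stage score, then the cluster led by cell division genes and the other unnamed clusters. ropn1l and spata4 pass 10% in cluster 10, left of the later genes, and tekt2 peaks in cluster 8 and is at or near 0 in the spermatid-like clusters.

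The size of early values was read against cluster 18, 18 shallow barcodes that scored highest for erythroid markers and belong to a lineage with no sperm tail (median 902.5 UMIs). They held 1.00 UMI of the 8 genes per barcode (0.593 to 1.58). How much of this was free RNA was not tested. ropn1l had 2.31 UMIs per cell in cluster 10 against 0.5 in cluster 18 (0.229 to 0.949). Cluster 10 was also deeper, with a median of 4393 UMIs against 902.5. These values are per cell and not in CPM, the unit of the onset line, so they do not set the early onset apart from free RNA. spata4 in cluster 10 had 0.241 UMIs per cell, inside the interval in cluster 18 (up to 0.310), and passed it in cluster 1, with 0.514. tekt4 in cluster 1 had 0.0900 UMIs per cell, below the 0.167 that a count of 0 in 18 barcodes allows, and in cluster 4 it had 0.299. Early spermatocyte-like clusters 3 and 7 held 0.903 and 0.856 UMIs of the 8 genes per cell, no more than cluster 18.

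Per cell rather than in CPM, the order of the spermatid-like clusters changed. Cluster 6, with a median of 5726.5 UMIs, held 28.6 UMIs of the 8 genes per cell, and the shallower clusters 12 and 13, with medians of 1419 and 1318.5 UMIs, held 10.9 and 12.3. In CPM, clusters 12 and 13 were higher, at 5861 and 6512 against 4547 in cluster 6. tekt4 went the other way in CPM, at 142 in cluster 6, 108 in cluster 12 and 62.0 in cluster 13. tekt2 had only 5 UMIs in these spermatid-like cells.

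In the adult differentiating library tekt2 was highest in the cluster led by cell division genes and near 0 in the spermatid-like clusters. Cluster 8, led by cell division genes, held 50.1% of its 922 UMIs, and there it stood at 82.6 CPM and was itself 1 of the 10 leading genes. Its next highest level was 21.7 CPM, in cluster 15, a deep unnamed cluster with dnd1 among its leading genes. Oocyte markers scored highest in that cluster, with figla and nobox raised. In late spermatocyte-like cells it had 1.48 CPM and in spermatid-like cells 0.763 CPM, which is 5 UMIs in 1679 cells. By the 10% line its onset fell in early spermatocyte-like cluster 7, at 10.9 CPM, and no staged cluster reached the 25% line. Clusters 8 and 15, its highest, have no place in the stage order. In thinned cells tekt2 was seen in 1.75% of cells with plk1 and 0.354% without. All the other genes were also seen more often in cells with plk1, such as spag6 at 24.9% against 10.3%. In adult regressed cells tekt2 was at 3.8% with plk1 and 2.35% without, and tekt1 at 5.96% and 3.94%.

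In the adult regressed library the 2 clusters led by cell division genes, 12 and 14, had 89.5 and 56.1 CPM of tekt2, the highest of 20 clusters apart from 1 UMI in a cluster of 17 cells. tekt1 had 149 and 194 CPM in these 2 clusters, beside 47.0 CPM in the whole adult regressed library. In cluster 8 of the adult differentiating library it had 188 CPM, below the 290 CPM of that whole library. Of the UMIs in the adult regressed library, these 2 clusters held 29.6% of those of spata18 (40 UMIs), 26.5% of those of tekt1, 22.6% of those of tekt2 and 11.8% of those of spag6, with 7.52% of the cells. For akap14, ropn1l, spata4 and tekt4 the shares were 8.39%, 9.30%, 4.59% and 2.59%. Cluster 17 (168 cells) also had cdca3, cdk1 and bub3 among its leading genes. With 2 genes of the division list it fell short of the rule of 3 and is not in these shares. It held 528 UMIs of tekt1 and 37.7 of tekt2 for every 100 of tekt1. No juvenile cluster was led by cell division genes, and the highest juvenile tekt2 level was 28.4 CPM, in early spermatocyte-like cluster 7 (47 UMIs). Leading genes are relative to the other clusters of a library, and ccnb1 was found in 4323 juvenile cells and missing from 44. In thinned juvenile cells tekt2 was seen in 1.1% of those with plk1 (0.73 to 1.58). Without plk1 it was seen in 0.937% (0.547 to 1.5), so the intervals overlapped. The juvenile spermatid-like cluster had 21.2 CPM of tekt2, from 6 UMIs, beside 7.35 CPM in the other juvenile cells.

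**Figure D3:**
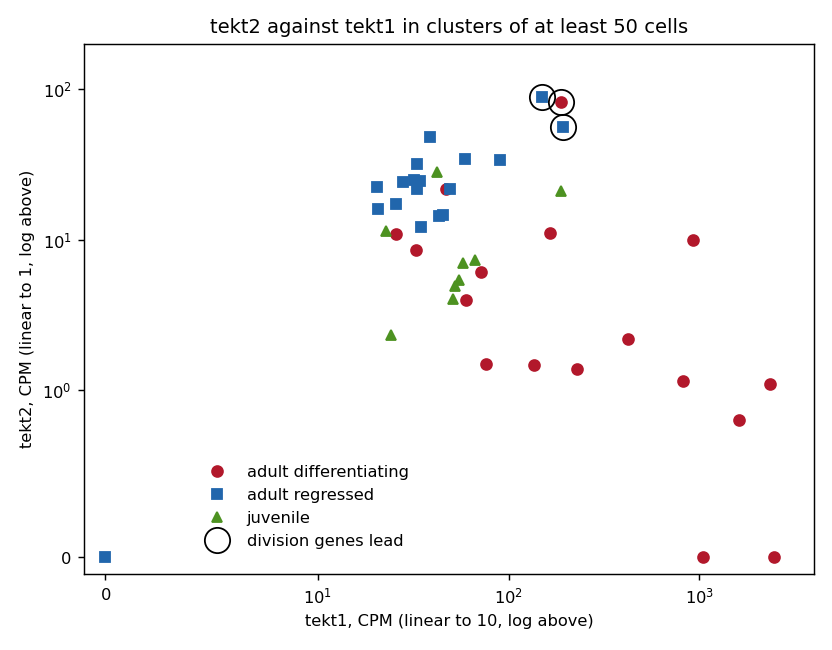
Level of tekt2 against tekt1 in the 44 clusters of at least 50 cells of the 3 libraries (CPM; axes are linear near 0 and log above), with clusters led by cell division genes ringed. The ringed clusters are the highest for tekt2, and the 3 spermatid-like clusters of the adult differentiating library, highest for tekt1, have tekt2 at 1.1 CPM or less.

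The genes next to tekt2 in the gene table, usf2 and LOC104928070, do not overlap it, and over the 44 clusters their levels correlated with it at r = 0.533 and r = 0.534. usf2 had 27.0, 30.6 and 24.7 CPM in the adult differentiating, adult regressed and juvenile libraries. Whether reads of a neighbour were counted for tekt2 was not tested.

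In the adult regressed and juvenile libraries the remaining UMIs were read against somatic cells. Sertoli-like cells of the adult regressed library (198 cells, median 7628.5 UMIs) had 106 CPM of the 8 genes (94.2 to 119), beside 142 CPM in the whole library, and 32.1 CPM of tekt1, beside 47.0. A shallow cluster of 76 cells with lymphocyte markers highest (median 1460 UMIs) had 29.7 CPM, from 5 UMIs, with tekt1 at 0. In the juvenile library, Sertoli-like cells (83 cells, median 13588 UMIs) had 59.0 CPM, erythroid-like cells (111 cells) 66.4 CPM and macrophage-like cells (68 cells) 118 CPM, beside 110 CPM in the whole library. The juvenile level lay above the intervals of its Sertoli-like (48.1 to 71.6) and erythroid-like cells (44.5 to 95.4). It also lay above that of its 33 lymphocyte-like cells (17.2 to 71.2, from 9 UMIs). It lay inside the interval of its macrophage-like cells (97.2 to 141). The adult regressed level likewise lay above the interval of its Sertoli-like cells. Early and late spermatocyte-like cells of the adult regressed library had 96.3 and 112 CPM of the 8 genes. In these sums the intervals of the early (91.7 to 101.1) and late class (107.5 to 117.6) both overlapped that of its Sertoli-like cells. By gene, the late class was above Sertoli-like cells for ropn1l, at 39.3 CPM (36.4 to 42.4) against 28.9 (23.0 to 35.9). It was also above them for spata4, at 20.6 CPM (18.5 to 22.9) against 13.4 (9.49 to 18.4). It was below them for tekt1, at 20.6 against 32.1 CPM, and the other intervals overlapped. The early class was above them for no gene and below them for tekt1 and tekt2. Early and late spermatocyte-like cells of the adult differentiating library had 488 and 2063 CPM in sum. The class names need not mark the same stage in both libraries. In the adult regressed library the late class was raised for mybl1, nek2, ttk, pttg1 and cdk1, without ccna1 or hsf5. Its early class was raised for sycp2, stag3 and meiob and was led by genes such as ccne2, e2f2 and pclaf.

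A few cells carried much of what was left of akap14 and spata18, and little of tekt1 and spag6. In the adult regressed library an unnamed cluster of 19 cells, with late spermatocyte markers highest and saxo2 among its leading genes, held 35.7% of the akap14 UMIs, 19.3% of spata18, 4.41% of spag6 and 0.817% of tekt1. In the juvenile library a spermatid-like cluster of 80 cells held 25.0% of the akap14 and of the spata18 UMIs, 6.52% of spag6 and 4.13% of tekt1. The 8 genes summed stood at 2965 CPM in the 19 adult regressed cells and 474 CPM in the 80 juvenile cells. Without these cells akap14 was at 0.442 CPM in adult regressed testis and 2.32 CPM in juvenile testis. None of their barcodes occurred in the adult differentiating library, against 0.36% and 0.402% of the other cells of the 2 libraries. At shares that low, groups of 19 and 80 cells would hold hardly any such barcodes. Their absence therefore cannot tell where these cells came from.

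Because deep cells show any gene more often, shares of cells were compared after each cell was thinned to 1000 UMIs, which left 11564, 14622 and 4367 cells and set aside 1275, 654 and 193. At least 1 of the 8 genes was then seen in 52.3% of adult differentiating cells (51.3 to 53.2), 12.3% of adult regressed cells (11.7 to 12.8) and 10.5% of juvenile cells (9.59 to 11.4). Before thinning the same cells gave 80.6%, 66.8% and 32.2%. Sertoli-like cells, thinned alike, gave 8.70% in the adult regressed library (5.05 to 13.7) and 7.23% in the juvenile library (2.70 to 15.1), intervals that include the shares of the whole libraries.

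By gene, ropn1l was seen in 32.9% of thinned adult differentiating cells, 3.93% of adult regressed cells and 2.43% of juvenile cells. tekt1 was seen in 22.7% of adult differentiating cells, 4.41% of adult regressed cells and 5.86% of juvenile cells, beside 3.8% of adult regressed and 3.61% of juvenile Sertoli-like cells. akap14 was seen in 11.6% of adult differentiating cells, 0.109% of adult regressed cells and 0.183% of juvenile cells. spag6 was seen in 13.8% of adult differentiating cells, 0.602% of adult regressed cells and 0.733% of juvenile cells, and the shares of spata4, spata18 and tekt4 were also highest in adult differentiating cells, at 9.29%, 5.92% and 3.08%. tekt2 was the one gene not seen most often in adult differentiating cells, at 0.692% (0.549 to 0.860). It was seen in 2.69% of adult regressed (2.43 to 2.96) and 1.03% of juvenile cells (0.753 to 1.38). The adult differentiating and juvenile intervals overlapped, and at 2000 UMIs per cell these 2 shares were 1.47% and 1.42%.

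In cells thinned to 1000 UMIs, several of the genes together were found mainly in the adult differentiating library. At 1000 UMIs per cell, 3 or more of the 8 genes were seen in 13.5% of its cells (1562 cells), in 0.109% of adult regressed cells (16 cells) and in 0.0229% of juvenile cells (1 cell). Within the adult differentiating library this share was 0.768% in early spermatocyte-like cells, 19.5% in late spermatocyte-like cells and 72.1% in spermatid-like cells. The mean number of genes seen per cell was 0.472, 1.60 and 3.20 in these classes. No thinned cell showed all 8, and 2 cells showed 7.

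Among all cells of the adult differentiating library, a cell with tekt1 more often had the other genes than a cell without it, except for tekt2. spag6 was seen in 37.7% of the 2625 cells with tekt1 (35.8 to 39.6) and 6.85% of the cells without it. akap14 was seen in 32.0% of cells with tekt1 and 5.60% without, spata18 in 17.8% with and 2.43% without, and tekt4 in 7.81% with and 1.69% without. ropn1l was seen in 51.3% of cells with tekt1 and 27.5% without, and spata4 in 16.6% with and 7.13% without. tekt2 was seen in 0.686% of cells with tekt1 and 0.694% without.

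Within a class these gaps were narrower. In spermatid-like cells akap14 was seen in 51.4% of cells with tekt1 (48.5 to 54.2) and 47.0% of cells without it, spag6 in 59.8% with and 59.5% without, and spata4 in 21.5% with and 21.6% without. In late spermatocyte-like cells a gap remained for akap14, at 23.8% with tekt1 and 14.2% without, for spag6, at 32.5% with and 20.9% without, and for spata18, at 8.13% with and 4.71% without, while spata4 was at 19.8% with and 20.3% without. In early spermatocyte-like cells ropn1l was seen in 31.3% of cells with tekt1 (27.3 to 35.5) and 25.3% of cells without it (24.1 to 26.5), and for the other 6 genes the intervals overlapped. Late spermatocyte-like cells span 3 clusters over which tekt1, akap14 and spag6 all climb, at 227, 423 and 823 CPM for tekt1. The part of this climb in the gaps was not tested.

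Over all cells of the adult differentiating library, cells with tekt2 seldom had the other genes, tekt1 apart. Of the 80 thinned cells that showed it, 5.00% also had ropn1l (1.38 to 12.3), against 33.1% of the other cells, and none had spata4 or tekt4, where 9.35% and 3.1% of the other cells did. For 0 of 80 cells the exact interval reaches 4.51%. Of the 80 cells, 38 were in the cluster led by cell division genes. There ropn1l was seen in 8.38%, spata4 in 0.873% and tekt4 in 0.349% of all 573 thinned cells. In early spermatocyte-like cells ropn1l was seen in 8.7% of the 23 cells with tekt2 (1.07 to 28). Without tekt2 it was seen in 25.9% (24.8 to 27), so the intervals overlapped within this class. tekt1 was seen in 22.5% of cells with tekt2 and 22.7% of cells without it.

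**Figure D4:**
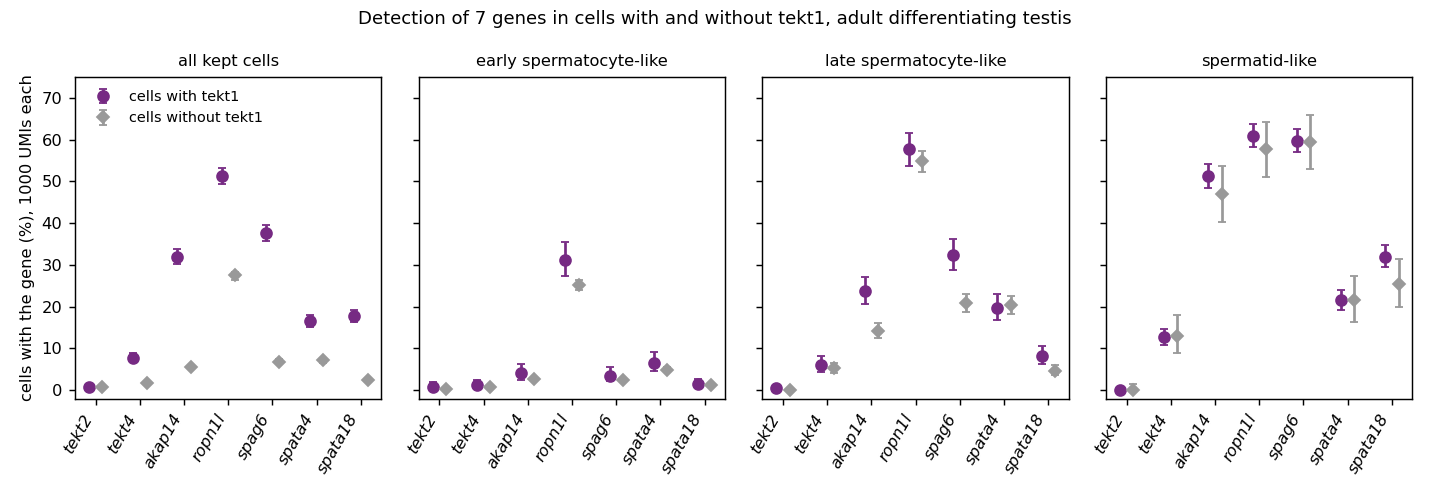
Percent of cells with each of the other 7 genes among cells with tekt1 (circles) and without it (diamonds), in the adult differentiating library with every cell thinned to 1000 UMIs; bars are 95% Clopper-Pearson intervals. Over all kept cells the circles lie above the diamonds for 6 genes, and in spermatid-like cells the intervals overlap for every gene.

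In the adult differentiating library the level also varied with the depth of the cell. In bins that start at 500, 1000, 2000, 5000, 10000 and 20000 UMIs, the 8 genes summed stood at 1952, 2156, 1262, 1454, 1071 and 355 CPM. The share of spermatid-like cells in these bins was 17.5%, 27.1%, 8.22%, 13.4%, 8.84% and 2.46%. Within spermatid-like cells alone the values were 4556, 5878, 5773, 4648, 4575 and 3938 CPM, the last from 13 cells. In early spermatocyte-like cells they were 867, 565, 591, 477, 405 and 337 CPM. The part of free RNA in the higher values of shallow cells was not tested.

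In the adult regressed library the level was nearly flat over depth, at 156, 152, 141, 137, 140 and 143 CPM, while the share of cells with at least 1 of the genes went up over the same bins, from 10.1% in the first to 96.1% in the last. The juvenile library had between 88.4 and 129 CPM in its bins. tekt2 ran against the other genes in the adult differentiating library, with 2.95 CPM in the bin from 1000 UMIs and 21.0 CPM in the bin from 20000 UMIs, where tekt1 was lowest at 102 CPM.

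**Figure D5:**
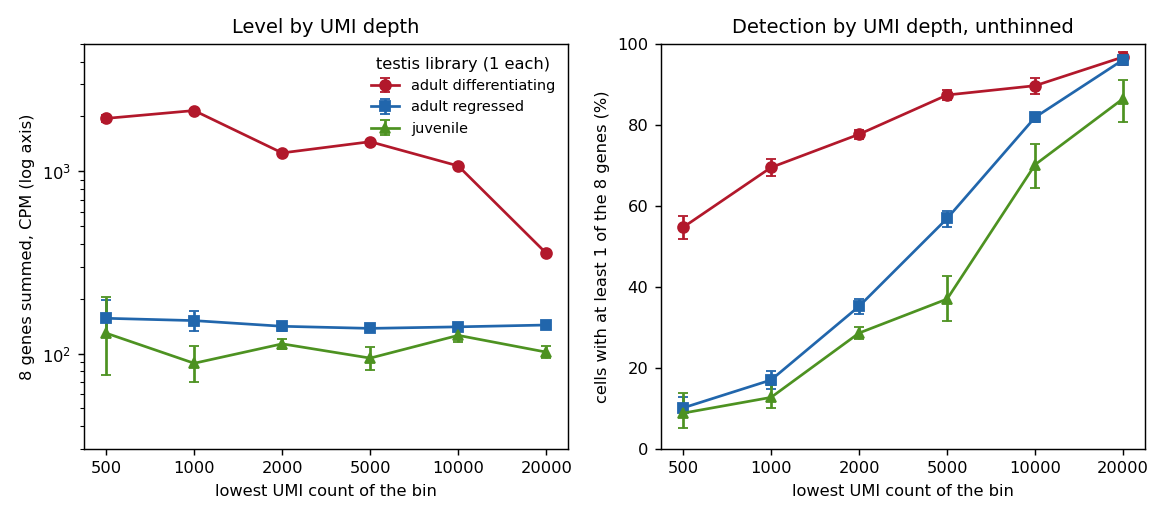
The 8 genes summed by UMI depth of the cell, in the adult differentiating, adult regressed and juvenile libraries: level in CPM on a log axis (left) and percent of unthinned cells with at least 1 of the genes (right); bars are 95% intervals. Within the adult differentiating library the level is lowest in the deepest bin, at 355 CPM, and detection climbs with depth in all 3.

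The rest of the pathway was read from 6 lists of genes, excluding the 8. Of other tektins and inner doublet proteins, 20 of the 22 genes tested were higher past 2-fold in adult differentiating than in adult regressed testis and 1 was lower. The list's median ratio was 7.49, against 0.898 for all genes, of which 18.9% were higher and 23.6% lower. meig1, needed for mouse spermiogenesis, was at 779 CPM in adult differentiating testis and 142 CPM in adult regressed testis. saxo2, a microtubule-binding protein, was at 521 CPM in adult differentiating testis and 2.15 CPM in adult regressed testis, a ratio of 242. cfap20 had a ratio of 4.4. cfap45 stayed within the threshold at a ratio of 1.93, and the lower gene was efcab6, at 0.483 from 8 UMIs in adult differentiating and 45 in adult regressed testis.

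Central pair genes gave 20 of 21 higher and none lower, with a median ratio of 7.92. hydin, a giant protein of the central pair, was at 208 CPM in adult differentiating testis and 13.8 CPM in adult regressed testis, a ratio of 15.1. The kinesin kif9 had a ratio of 15.9, spef1 3.42 and dpcd 3.17. mycbp was within the threshold at 1.52. Of outer dense fibre and tail accessory genes, 14 of 16 were higher and none lower, with a median of 4.35, among them cfap44 at a ratio of 4.80 and cfap43 at 11. tex9 and spata17 had ratios of 5.94 and 7.62, and odf2a and ift88 stayed within the threshold at 1.84 and 1.54.

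A-kinase anchoring, regulatory subunit-like and fibrous sheath genes were split, with 7 of 14 higher, none lower and a median of 1.86. The higher ones included the sperm autoantigen spa17, at 241 CPM in adult differentiating testis and 22.4 CPM in adult regressed testis, a ratio of 10.8. dydc2, rsph3 and catip had ratios of 11.8, 8.44 and 18.3. The regulatory subunits of the kinase itself, prkar2aa and prkar1aa, had ratios of 0.815 and 1.01. Ciliary transcription factors gave 4 of 14 higher and 4 lower, with a median of 0.935, near the 18.9% and 23.6% of all genes. The higher ones were rfx2, a driver of mouse spermiogenesis, at a ratio of 4.67, rfx1a at 4.90, rfx3 at 2.81 and e2f5 at 2.18. e2f4 and rfx7b had ratios of 1.1 and 0.692. Mitochondrial quality genes, the list closest to spata18, gave 3 of 14 higher and 4 lower, with a median of 0.626, also near the shares of all genes. The higher ones were the mitophagy receptor bnip3la at a ratio of 3.32 and the autophagy genes map1lc3a at 2.91 and map1lc3c at 11.2. map1lc3c had 33.5 CPM in adult differentiating, 2.98 CPM in adult regressed and 1279 CPM in juvenile testis. phb was among the lower ones at 0.400.

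Over juvenile testis, adult differentiating testis was higher for 21 of 21 inner doublet genes, 21 of 21 central pair genes, 15 of 16 tail accessory genes, 11 of 14 anchoring genes, 9 of 12 ciliary transcription factors and 3 of 14 mitochondrial quality genes. These counts stand beside 41.0% of all genes tested.

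Across the 44 clusters of at least 50 cells, 7 of the 8 genes resembled each other. Pearson's r of log2(CPM + 10) between pairs of them was between 0.829 and 0.983, while tekt2 gave values between -0.551 and -0.311 with the other 7. Clusters of 1 library share its depth and free RNA, so these are descriptions. The genes most like the 8 summed were cfap52 at r = 0.984, fbxo36, lypla1, sept3, cfap77, cfap53, lrrc51, cfap126, tex49 and dnajb13 at 0.970. With Spearman's rho instead, 8 of these 10 were again among the first 10.

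The nearest genes differed by gene. For tekt1 they were cfap53 (r = 0.95) and capn5 (0.948), for tekt4 cep126 (0.981) and LOC104931144 (0.980), and for akap14 cxxiih17orf97 (0.995) and pifo (0.994). For ropn1l they were iqck (0.979) and cyb5d1 (0.977), for spag6 pifo (0.985) and izumo1 (0.983), for spata4 lrrc69 (0.973) and rsph3 (0.969), and for spata18 c19h1orf94 (0.994) and LOC104935844 (0.988). For tekt2 they were cxh12orf29 (0.879) and tmem9 (0.861), neither of which was among those of the other 7.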

How the data were processed

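The 3 single-cell RNA libraries of dissociated testis were deposited as whole-number UMI counts per gene and barcode. The submitters' processing notes name Cell Ranger 3.1.0 and STAR, and the matrices give Cell Ranger 5.0.0 per the file headers. The genome build and strand setting are not given in the sources used here. Gene names come from the files, and 6010 of 15972 numbered features took a symbol from the L_crocea_2.0 gene table of RefSeq. No sequence is shown because no sequence table was used here.

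Cells with at least 500 UMIs, at least 300 genes and at most 20% mitochondrial UMIs were kept. The barcodes most like simulated doublets were removed, at 0.8% per 1000 barcodes (1752, 2543 and 180 of 14800, 17828 and 4742 barcodes in the adult differentiating, adult regressed and juvenile libraries). The libraries deposited 102809626, 293009193 and 24826985 UMIs, of which 76705031, 208443549 and 23545003 were kept. Levels are deposited counts summed over cells and scaled to one total (CPM), with exact Poisson intervals. Ratios have exact conditional binomial intervals and shares Clopper-Pearson intervals, all at 95%. Called means past 2-fold in CPM among genes with at least 50 UMIs in the pair, a count under the floor of 3 being set to 3.

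Each library was clustered alone (2000 variable genes, 30 principal components, 20 neighbours, Leiden resolution 1, leidenalg 0.10.2), leaving out 292 genes that include the 8 and the pathway lists. Clusters were named from marker lists where at least 3 markers were raised, unless the cells were shallow and no own marker was among the leading genes. Clusters with 3 or more cell division genes among the 10 leading genes were left unnamed, a rule added after the clusters were seen. Within a class, clusters were ordered by the spermatid score minus the mean spermatogonia score. The 8 genes, lists and rules were chosen with earlier results of these data known. Named list genes are the 4 highest in adult differentiating testis past 2-fold over adult regressed testis and the 2 highest not past it, and named similar genes are the nearest 10 or 2 by r with at least 500 UMIs. Some genes that the rule names are not reported here. The ratio rule and thinning were tested on simulated data. Analyses used numpy 2.4.6, scipy 1.17.1 and pandas 2.3.3.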

Additional observations from a re-analysis of the deposited data

How the results depend on the processing

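No paired analysis was possible because each group has 1 library, and no library could be left out. The summed ratio of adult differentiating over adult regressed testis (7.46) was 6.87 with every deposited barcode, 6.88 with doublets kept, 6.24 with the 50 most abundant genes out of the denominator, 8.24 under median-of-ratios scaling and 10.4 as a mean over cells. Over juvenile testis (9.63) the same settings gave 8.62, 8.63, 8.74, 9.04 and 13.2, and 10.0 without the juvenile cluster of 80 spermatid-like cells. For adult regressed over juvenile testis (1.29) the values that moved were 1.40 without the 50 genes and 1.1 under median-of-ratios scaling, which itself shifts log2 ratios by 0.143, -0.091 and -0.234 in the 3 comparisons.

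Of 192 single-gene ratios, 0 changed direction among those past 2-fold and 186 kept their side of it. The exceptions were tekt2 in adult differentiating over adult regressed testis (0.507 with every barcode and with doublets kept, 0.501 under median-of-ratios scaling), tekt4 in adult regressed over juvenile testis (0.464 and 0.451, against 0.546) and spata18 there (0.563 as a mean over cells). tekt2 over juvenile testis (1.60) was 0.915 as a mean over cells.

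Thinning to 2000 UMIs gave 65%, 24.0% and 18.9% of adult differentiating, adult regressed and juvenile cells with any of the genes. It gave 22.7% of adult differentiating and 0.264% of juvenile cells with 3 or more. Counting a gene from 2 UMIs in unthinned cells gave 17.7%, 2.43% and 0.285%, and the juvenile share was 0 without barcodes found in more than 1 library. Onset in an early spermatocyte-like cluster, the earliest class in the order, held for 4 genes, and for 2 at the 25% line or with doublets kept. tekt2 had its onset before ropn1l and spata4 at Leiden resolution 0.5 and with 1000 variable genes. The deepest adult differentiating bin had 343 CPM with every barcode.

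At 3-fold, 2209 genes were higher and 2558 lower in adult differentiating than in adult regressed testis (3743 and 4674 at 2-fold), and 4323 were higher in adult regressed than in juvenile testis (7124). With genes from 1 UMI, 5770 were higher in adult differentiating than in adult regressed testis, 9079 lower than in juvenile testis (4499), and 8139 lower in adult regressed than in juvenile testis (4383). Under median-of-ratios scaling 5 pathway genes were lower in adult differentiating than in adult regressed testis (9). The cause of each shift was not tested. Stage names rest on few markers, free RNA was not removed, and a count of 0 limits a share only to 3 counts of its cells. The alternatives on naming, on leaving out the clusters of 19 and 80 cells and on shared barcodes were chosen after seeing the data.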
